A study of Homo sapiens with 18 samples.

Results

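The platelet-derived growth factor (PDGF) family was followed here as 7 genes. PDGFRB and PDGFRA encode the receptors, PDGFRL a receptor-like protein, and PDGFA, PDGFB, PDGFC and PDGFD the ligands. They were chosen by name, and all 7 were found among the 61487 genes of the count table. 6 of them were among the 18544 genes with enough reads to test. PDGFRL was not, with 0 to 7 reads per library.

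RNA was measured in MSC-hTERT cells, mesenchymal stem cells immortalized with telomerase, an established human line. There were 18 libraries in 6 groups of 3. The control group carried pMSCV, which names a retroviral vector. The second carried SRF, the transcription factor serum response factor, and the other 4 carried fusions of SRF with FOXO1, ICA1L, PDGFRB or RELA, labelled SRF-FOXO1, SRF-RELA, SRF-PDGFRB and SRF-ICA1L. All groups were grown in medium with 10% serum and 1 ng/ml FGF-2, so the controls too received growth factors. The labels do not state whether the 3 libraries of a group came from separate infections or from 1 culture, so p-values measure only the spread between these libraries.

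PDGF ligands are secreted dimers that bind pairs of receptor tyrosine kinases. PDGF-A acts mainly through receptor alpha, PDGF-B through both receptors, PDGF-C mainly through alpha and PDGF-D mainly through beta. PDGF-C and PDGF-D must be cut by a protease before they can bind. Mesenchymal stem cells, fibroblasts, pericytes and smooth muscle cells carry the receptors, and bound receptors signal through RAS and ERK, PI3 kinase, phospholipase C gamma and STAT proteins. SRF itself is a nuclear mediator of the response to serum and growth factors and binds a DNA motif called the CArG box.

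Because every construct contains SRF or part of it, the windows of 250 bases before the annotated start sites were searched for the CArG box, whose pattern reads the same on both strands. Sequences are from RefSeq, build GRCh38.p14. Windows are reported for 4 members, 1 for PDGFRB, 2 for PDGFRA, 4 for PDGFA and 1 for PDGFD. None are reported for PDGFB, PDGFC and PDGFRL, so nothing is said of a match before these genes. A match was found in 1 of the 4 PDGFA windows, chr7:520227-520476 on the minus strand, at bases -120 to -111 from the start site. None was found in the windows of the other 3 genes. Of 35116 windows of this length, 407, or 1.159%, hold a match. This share is per window, and a gene with 4 windows has more than 1 place for a match, so it is no measure for PDGFA as a gene. The PDGFA window is shown with the match in capitals, beside the windows of the receptors at chr5:150155846-150156095 (PDGFRB, minus strand) and chr4:54229043-54229292 (PDGFRA, first start site, plus strand), since these 3 genes and PDGFB carry the differences described next.
PDGFA: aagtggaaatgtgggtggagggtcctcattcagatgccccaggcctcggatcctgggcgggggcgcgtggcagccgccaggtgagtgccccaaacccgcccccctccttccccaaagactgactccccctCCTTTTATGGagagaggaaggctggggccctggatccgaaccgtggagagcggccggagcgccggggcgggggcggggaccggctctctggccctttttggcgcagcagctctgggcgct
PDGFRB: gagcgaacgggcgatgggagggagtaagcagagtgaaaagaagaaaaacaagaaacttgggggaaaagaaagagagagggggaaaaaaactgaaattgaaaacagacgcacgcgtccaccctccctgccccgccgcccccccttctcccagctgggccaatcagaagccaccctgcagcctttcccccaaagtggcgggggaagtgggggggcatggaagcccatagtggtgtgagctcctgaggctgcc
PDGFRA: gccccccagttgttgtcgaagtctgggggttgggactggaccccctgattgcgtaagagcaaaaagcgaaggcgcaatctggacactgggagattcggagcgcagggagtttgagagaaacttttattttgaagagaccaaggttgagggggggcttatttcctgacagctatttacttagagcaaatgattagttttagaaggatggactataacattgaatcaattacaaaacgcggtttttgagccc
A match describes letters in a window and was not tested as a binding site.

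Library totals ran from 19362319 to 29806771 reads assigned to genes. The marker genes of mesenchymal stem cells on the list used (THY1, NT5E, ENG, CD44 and ALCAM) were detected in all 18 libraries, and TERT, the immortalizing gene, was at 41.4 to 86.0 CPM (the reads of a gene as a share of the library's total, on the usual scale). The haematopoietic marker PTPRC was at or below 0.277 CPM and of 4 epithelial markers KRT5 was at 0 in all 18, EPCAM and CDH1 were at or below 1.14 CPM, and KRT8 was at 24.3 to 52.3 CPM. SRF averaged 60.96 CPM in pMSCV, 945 in SRF and 182 to 326 in the fusion groups. FOXO1 was not higher in the libraries labelled SRF-FOXO1 (9.79 ± 3.99 CPM, SD, n = 3) than in pMSCV (12.6 ± 4.27), so its counts give no check of that label. ICA1L and RELA were highest in their own groups, at 135.5 ± 16.7 and 256 ± 19.2 CPM.

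PDGFRB, the beta receptor and a part of 1 construct, was abundant in every library and highest in SRF-PDGFRB. The gene (ENSG00000113721) lies at chr5:150113837-150155872 on the minus strand of GRCh38. In pMSCV its level was 502, 392 and 381 CPM in libraries 1, 2 and 3. In SRF it was 621, 499 and 357 CPM. The libraries labelled SRF-FOXO1 had 315, 420 and 368 CPM. SRF-ICA1L (507, 438 and 408 CPM) and SRF-RELA (510, 425 and 416 CPM) were close to the control. In SRF-PDGFRB it was 930, 526 and 673 CPM. Reads of the native gene and of the construct are counted together and cannot be told apart in this table. The 3 SRF-PDGFRB libraries lay above all libraries of pMSCV, SRF-ICA1L, SRF-RELA and the group labelled SRF-FOXO1, and overlapped those of SRF.

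**Figure D1:**
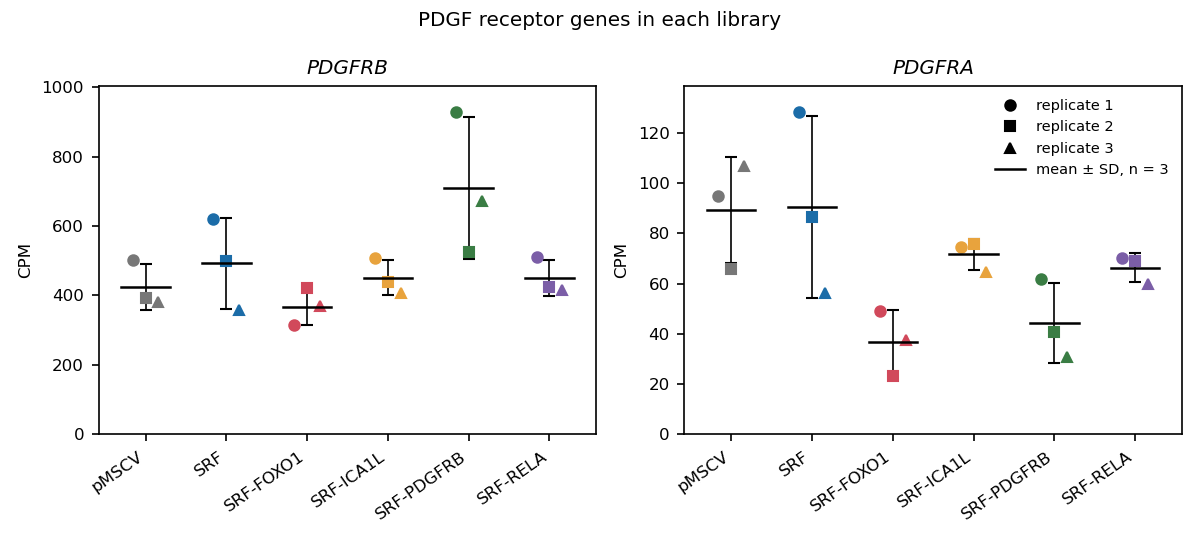
Level of PDGFRB (left) and PDGFRA (right) in CPM (vertical axis from 0) for the 18 libraries in 6 groups. Symbols mark the replicate number, horizontal lines the mean and bars the SD of 3 libraries. PDGFRB averaged 709 CPM in SRF-PDGFRB against 425 CPM in pMSCV, and PDGFRA was lowest in the group labelled SRF-FOXO1, at 36.6 CPM, and in SRF-PDGFRB, at 44.4 CPM.

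Against pMSCV the PDGFRB difference in SRF-PDGFRB was 0.73 (SE 0.23) on the log2 scale, higher in 3 of 3 pairs of equal number. It did not pass the test over all genes (edgeR quasi-likelihood F test, Benjamini-Hochberg adjusted p = 1, unadjusted p = 0.00534). Against SRF it was 0.49 (SE 0.23, edgeR adjusted p = 0.407). Against the libraries labelled SRF-FOXO1 it was 0.86 (SE 0.23, edgeR adjusted p = 0.101). With the replicate number in the model as a block, this last difference was 0.82 and was called, at an edgeR adjusted p of 0.0218. In the comparison of SRF-PDGFRB with pMSCV 0 of the 6 tested members were called by edgeR, where 0.0324% of all tested genes were, and 3 members had an unadjusted p under 0.05. DESeq2 called 0 members there too.

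The rise of the 2 genes of the SRF-PDGFRB construct was uneven between its libraries. PDGFRB exceeded the pMSCV library of the same number by 428, 133 and 292 CPM. SRF exceeded it by 276, 95.2 and 204 CPM. Both genes had their smallest excess in library 2. As ratios, PDGFRB was 1.85, 1.34 and 1.77 times the pMSCV library and SRF 5.51, 2.48 and 4.56 times. The SRF group, with the highest SRF counts, overlapped pMSCV in PDGFRB.

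**Figure D2:**
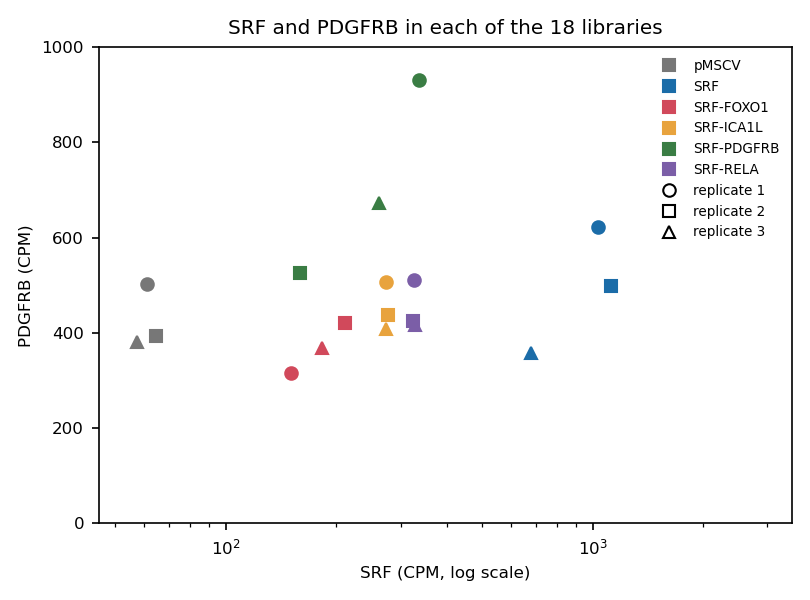
PDGFRB (vertical axis, CPM from 0) against SRF (horizontal axis, CPM on a log scale), 1 point for each of the 18 libraries, coloured by group and shaped by replicate number. The SRF-PDGFRB libraries lie at SRF levels of 337, 160 and 261 CPM and 2 of them stand above all others in PDGFRB, while the third, at 526 CPM, lies below SRF 1, at 621 CPM.

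PDGFRA, the alpha receptor, had its lowest group means in the group labelled SRF-FOXO1 and in SRF-PDGFRB. It is ENSG00000134853, at chr4:54229097-54298247 on the plus strand, and 1533 of its exon bases are shared with AC058822.1 on the same strand, so reads there could have been assigned to either gene or to neither. In pMSCV its level was 95.1, 65.8 and 107 CPM, and in SRF 129, 86.6 and 56.4 CPM. The libraries labelled SRF-FOXO1 had 49.1, 23.4 and 37.4 CPM, and in SRF-PDGFRB 61.9, 40.5 and 30.8 CPM. SRF-ICA1L (74.6, 75.7 and 64.6 CPM) and SRF-RELA (70.1, 69.2 and 59.9 CPM) had means between. The libraries labelled SRF-FOXO1 did not overlap pMSCV or SRF. SRF-PDGFRB did not overlap pMSCV or SRF-ICA1L, but overlapped SRF and SRF-RELA. How many of all genes were without overlap was not counted.

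The log2 difference of PDGFRA in the libraries labelled SRF-FOXO1 was -1.22 (SE 0.31) against pMSCV, lower in 3 of 3 pairs. It missed the threshold without the block (edgeR adjusted p = 0.0814) and passed it with the block, at -1.26 (SE 0.25, edgeR adjusted p = 0.00882). Against SRF it was -1.28 (SE 0.31, edgeR adjusted p = 0.0555). DESeq2 called both (adjusted p = 0.00631 and 0.00296). Of 18 edgeR fits without 1 library, 2 called the difference against pMSCV and 3 that against SRF. Both were called when SRF 3 or SRF-FOXO1 1 was left out (lowest edgeR adjusted p = 0.0371 and 0.0194). The edgeR adjusted p rose to 0.283 without pMSCV 1 and 0.243 without SRF 1. In these fits the differences ran from -1.47 to -1.01 and from -1.53 to -0.93. In SRF-PDGFRB the log2 difference against SRF was -1.06 (SE 0.31, edgeR adjusted p = 0.207), while the block gave -1.05 (SE 0.25, edgeR adjusted p = 0.0430). Against pMSCV it was -1.0 (SE 0.31, edgeR adjusted p = 1), while the block gave -1.06 (edgeR adjusted p = 0.171). SRF-PDGFRB and the group labelled SRF-FOXO1 differed from each other by 0.22 (SE 0.31, edgeR adjusted p = 0.766). The comparisons against pMSCV share the same 3 control libraries.

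Per kilobase of exon (union of exons in GENCODE 29), PDGFRB was the more abundant receptor in every group. Its group means ran from 51.5 to 99.4 CPM per kb and those of PDGFRA from 3.76 to 9.30. The ratio of PDGFRB to PDGFRA per kb was 6.73 ± 1.69 in pMSCV and 7.69 ± 1.03 in SRF (SD, n = 3). It was 8.59 ± 0.69 in SRF-ICA1L and 9.26 ± 0.80 in SRF-RELA. In SRF-PDGFRB, where PDGFRB includes construct reads, it was 22.6 ± 6.32. In the libraries labelled SRF-FOXO1 it was 15.6 ± 8.10, with a range of 8.74 to 24.5. PDGFRL stayed near the detection limit, at 0 to 0.292 CPM, with 3 to 10 reads summed over the 3 libraries of a group.

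PDGFB was the family member that differed most between groups. Its product is the ligand that binds both receptors. The gene (ENSG00000100311) lies at chr22:39223359-39244751 on the minus strand. In pMSCV it had 0, 0 and 1 reads, and in SRF 0, 1 and 4 reads. In the libraries labelled SRF-FOXO1 it had 168, 582 and 225 reads (5.64, 22.8 and 10.4 CPM), and in SRF-RELA 31, 113 and 117 reads (1.38, 3.96 and 4.89 CPM). SRF-ICA1L had 13, 20 and 28 reads (0.51, 0.69 and 1.17 CPM). SRF-PDGFRB had 0, 8 and 20 reads (0, 0.27 and 1.03 CPM). The order of the means was the group labelled SRF-FOXO1, SRF-RELA, SRF-ICA1L, SRF-PDGFRB, SRF and pMSCV. The first did not overlap the second, nor the second the third, and all later neighbours overlapped.

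**Figure D3:**
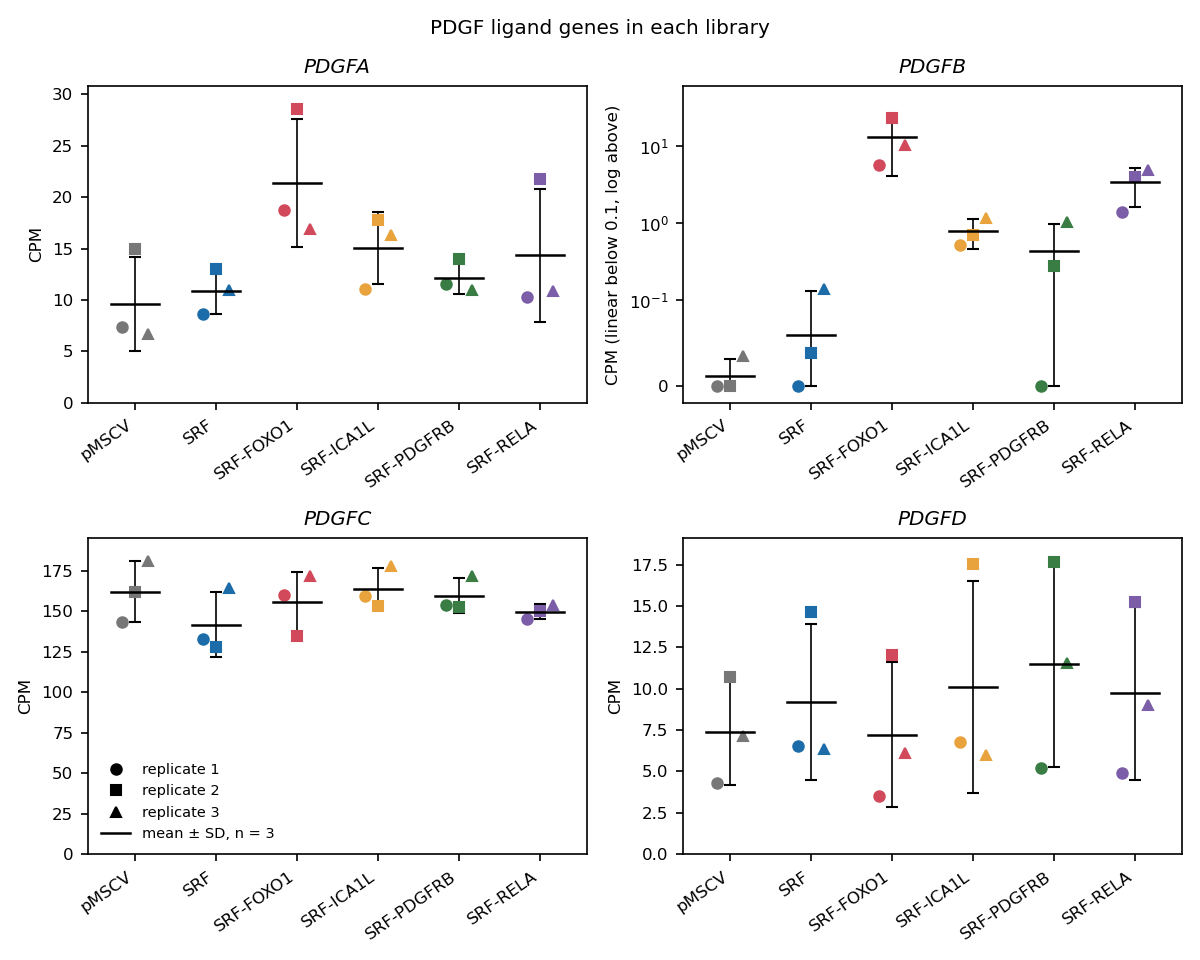
Level of the 4 ligand genes in CPM for the 18 libraries in 6 groups, with replicate numbers as symbols, the mean as a line and the SD (n = 3) as bars, cut at 0. The PDGFB axis is linear below 0.1 CPM and logarithmic above it. PDGFB averages 12.9 CPM in the group labelled SRF-FOXO1 and 3.41 CPM in SRF-RELA, while PDGFC lies between 128 and 181 CPM in all libraries, and PDGFA and PDGFD are highest in library 2 of every group.

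With 0 to 1 reads per library in pMSCV and 0 to 4 in SRF, PDGFB passed the count filter only through fusion groups where it was high. The tests below are thus of a gene that its high groups let in. PDGFB rose in the libraries labelled SRF-FOXO1 against pMSCV (edgeR adjusted p = 0.00495) and against SRF (log2 difference 7.71, SE 1.06, edgeR adjusted p = 0.00372). It rose in SRF-RELA against pMSCV (edgeR adjusted p = 0.0277) and against SRF (log2 difference 5.73, SE 1.07, edgeR adjusted p = 0.0357). It was lower in SRF-PDGFRB than in the libraries labelled SRF-FOXO1, by -5.15 (SE 0.86, edgeR adjusted p = 0.0147). Each of these was seen in 3 of 3 pairs, and PDGFB was the 1 member called in each. Of all tested genes, 0.928% were called in the comparison of the libraries labelled SRF-FOXO1 with pMSCV, 1.36% in that with SRF and 0.717% in that with SRF-PDGFRB. For SRF-RELA the shares were 0.183% against pMSCV and 0.388% against SRF. Against pMSCV, whose 3 libraries held 1 read together, the ratio of reads per total was 1018 for the libraries labelled SRF-FOXO1, with an exact 95% counting interval of 182 to 40261. It was 280 (49.8 to 11096) for SRF-RELA. Against SRF the ratios were 208 (88.6 to 641) and 57.0 (24.1 to 177). These intervals cover counting error only.

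In SRF-ICA1L the PDGFB reads did not overlap those of pMSCV or SRF, at 62.9 times (10.9 to 2523) and 12.8 times (5.20 to 40.9) the reads per total. Without the block 0 members were called by edgeR in either comparison, where 0.469% and 0.782% of all tested genes were, and PDGFB had an edgeR adjusted p of 0.144 and 0.198. Each had 2 members with an unadjusted p under 0.05. DESeq2 called 1 member against pMSCV, PDGFB, and 0 against SRF, and its share of all genes was not counted. With the block PDGFB was called against both, at edgeR adjusted p of 0.00892 and 0.0196. In SRF-PDGFRB, library 1 had 0 PDGFB reads as did 2 control libraries, and PDGFB was not called against pMSCV (edgeR adjusted p = 1) or SRF (edgeR adjusted p = 0.455). With the block SRF-PDGFRB had less PDGFB than SRF-RELA, by -3.23 (SE 0.54, edgeR adjusted p = 0.00800, against 0.296 without it).

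The PDGFB calls changed with the libraries included in the fit, and the cause was not tested. Fitted on the compared groups alone, the adjusted p for the libraries labelled SRF-FOXO1 was 0.0620 against pMSCV, 0.0700 against SRF and 0.151 for SRF-PDGFRB against them, and for SRF-RELA it was 0.0635 and 0.0930 (edgeR). In SRF-ICA1L against pMSCV the same setting turned the other way and called PDGFB (edgeR adjusted p = 0.0416, against 0.144 in the fit of all groups). Left-out libraries also moved the PDGFB differences. Against SRF the 7.71 of the libraries labelled SRF-FOXO1 was 9.18 without SRF 3 and 6.94 without SRF-FOXO1 2, and the 5.73 of SRF-RELA was 7.20 without SRF 3. The -5.15 of SRF-PDGFRB against the libraries labelled SRF-FOXO1 was -6.58 without SRF-PDGFRB 3 and -4.38 without SRF-FOXO1 2. Leaving out pMSCV 1 or pMSCV 3 gave edgeR adjusted p of 0.0623 and 0.0527 for the libraries labelled SRF-FOXO1 against pMSCV. For SRF-PDGFRB against them, leaving out SRF-PDGFRB 1 or SRF-PDGFRB 2 gave 0.0507 and 0.102 (edgeR). For SRF-RELA against pMSCV, the call was lost without any 1 of the 3 pMSCV libraries, SRF-RELA 2 or SRF-RELA 3, with edgeR adjusted p up to 0.243. For SRF-RELA against SRF it was lost in 9 of 18 such fits, those without any 1 pMSCV or SRF library, SRF-RELA 2, SRF-RELA 3 or SRF-PDGFRB 2, with edgeR adjusted p up to 0.176.

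Genes listed as markers of other cell types also differed between these groups. All libraries are of the same cell line, so a list's name does not show that such cells were present. The summed level of 6 pericyte and smooth muscle markers ran from 90.1 to 171 CPM in pMSCV, 128 to 227 in SRF, 184 to 842 in the libraries labelled SRF-FOXO1 and 170 to 410 in SRF-RELA. In SRF-ICA1L it was 190 to 433 and in SRF-PDGFRB 120 to 217 CPM. The sum of 4 endothelial markers was 71.3 to 92.2 CPM in pMSCV, 87.4 to 112 in SRF, 124 to 350 in the libraries labelled SRF-FOXO1 and 118 to 324 in SRF-RELA. In SRF-ICA1L it was 129 to 392 and in SRF-PDGFRB 75.4 to 138 CPM. Of these 4, CDH5 and VWF were at or below 1.96 and 1.46 CPM in all libraries, and PECAM1 was at 4.31 to 28.0 CPM. TEK, at 60.4 to 381 CPM, made up most of the sum. The part of these markers in the PDGFB result was not tested. In bulk RNA a change in the number of cells of a type and a change in RNA per cell cannot be told apart.

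PDGFA, the ligand of the alpha receptor, was highest in the libraries labelled SRF-FOXO1. The gene (ENSG00000197461) lies at chr7:497258-520296 on the minus strand, and the CArG box printed above is in the window before 1 of its start sites. Any part of this box in the PDGFA level was not tested. Its level was 7.36, 14.9 and 6.65 CPM in pMSCV and 8.60, 12.97 and 10.9 CPM in SRF. The libraries labelled SRF-FOXO1 stood at 18.8, 28.5 and 16.9 CPM. It was 11.1, 17.8 and 16.4 CPM in SRF-ICA1L, 11.6, 13.97 and 10.95 CPM in SRF-PDGFRB and 10.3, 21.8 and 10.9 CPM in SRF-RELA. The libraries labelled SRF-FOXO1 overlapped neither pMSCV, SRF nor SRF-PDGFRB.

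Against pMSCV the PDGFA difference in the libraries labelled SRF-FOXO1 was 1.25 on the log2 scale (SE 0.36, edgeR adjusted p = 0.123). With the block it was 1.28 (SE 0.18, edgeR adjusted p = 0.000811). The SRF-ICA1L difference was 0.77 (SE 0.36, edgeR adjusted p = 0.456). The block moved it to 0.82 (SE 0.18, edgeR adjusted p = 0.0190). For SRF-RELA the difference was 0.64 with either fit and not called (edgeR adjusted p = 1, with the block 0.182). SRF-PDGFRB had less PDGFA than the libraries labelled SRF-FOXO1, by -0.91 (SE 0.35, edgeR adjusted p = 0.258), a difference that the block moved to -0.86 (SE 0.18, edgeR adjusted p = 0.0146). In the SRF group itself 0 of 6 members were called against pMSCV by edgeR, where 0.0270% of all tested genes were, 0 had an unadjusted p under 0.05, and DESeq2 called 0.

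**Figure D4:**
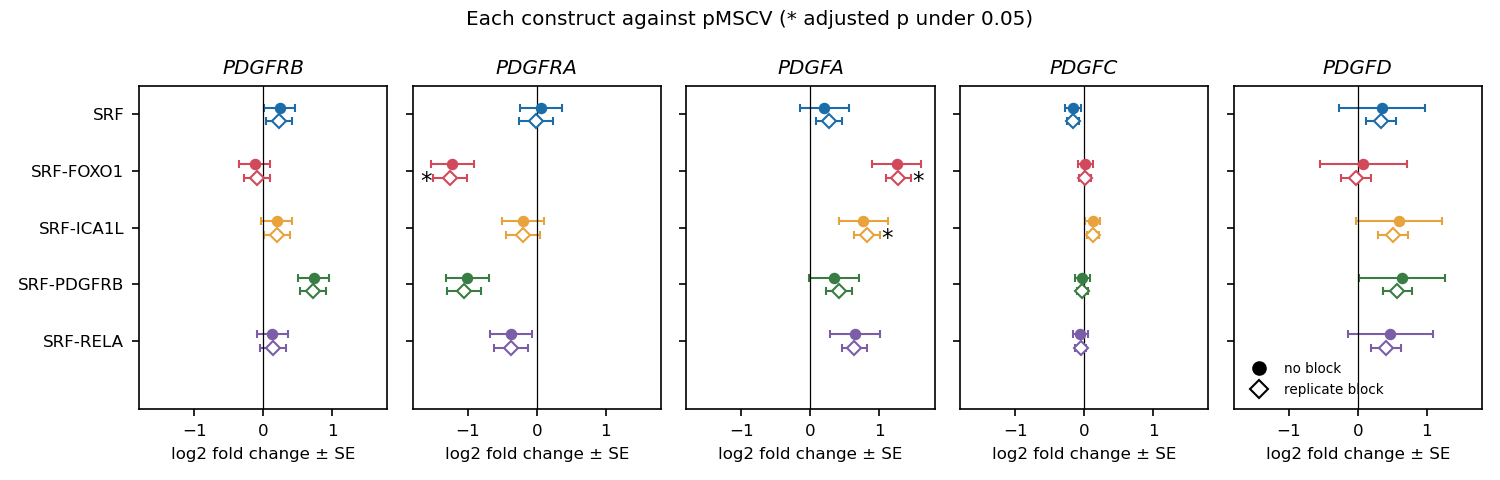
Log2 fold change of 5 members in each construct group against pMSCV (horizontal axis, bars show the SE), without the replicate block (filled circles) and with it (open diamonds). Stars mark an edgeR adjusted p under 0.05 and stand beside the block fits of PDGFRA and PDGFA in the group labelled SRF-FOXO1 and of PDGFA in SRF-ICA1L. PDGFB is left out because pMSCV held 1 read in all.

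The replicate block moved the count of members called. With it, 3 members were called in the libraries labelled SRF-FOXO1 against pMSCV (PDGFRA, PDGFA and PDGFB), where 7.03% of all tested genes were. Against SRF 3 were called (7.23%). The numbers were not taken to pair these last groups, since 1 pair of equal number correlated at 0.087, under the limit of 0.1. In SRF-RELA 1 was called against pMSCV (0.971%) and 1 against SRF (1.73%). In SRF-ICA1L 2 were called against pMSCV (4.66% of all genes) and 1 against SRF (4.73%). In SRF-PDGFRB 1 was called against SRF (2.34%), 3 against the libraries labelled SRF-FOXO1 (4.35%), 1 against SRF-RELA (0.847%) and 0 against SRF-ICA1L (4.76%, 3 at an unadjusted p under 0.05). Without the block 0 members were called in SRF-PDGFRB against SRF (0.146% of all genes), SRF-ICA1L (0.820%) or SRF-RELA (0.162%), with 2 members at an unadjusted p under 0.05 in each and 0 called by DESeq2. In SRF-PDGFRB against pMSCV 0 were called with the block (0.178%), with 5 at an unadjusted p under 0.05. The test of any difference among the 6 groups called PDGFB alone without the block (edgeR adjusted p = 0.000554, 1.67% of all genes called). With the block it called PDGFB, PDGFA and PDGFRA (edgeR adjusted p = 2.73e-06, 0.00295 and 0.0131, 8.77% of all genes called).

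PDGFC, a ligand that must be cut before it binds, was the most abundant ligand per length and was called in none of the 12 comparisons. The gene (ENSG00000145431) lies at chr4:156760454-156971394 on the minus strand. Its group means ran from 141.6 ± 19.9 CPM in SRF to 163.5 ± 13.1 CPM in SRF-ICA1L (SD, n = 3), and its log2 differences from -0.16 to 0.28. The 0.28, of SRF-ICA1L against SRF, had an SE of 0.11 and an edgeR adjusted p of 0.302. PDGFD, the other ligand that needs cutting, is ENSG00000170962, at chr11:103907186-104164379 on the minus strand, and 193 of its exon bases lie opposite DDI1. Its group means ran from 7.22 ± 4.39 to 11.5 ± 6.23 CPM, with no call in any comparison.

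Summed per kb, the 4 ligands stood at 30.1 to 38.1 CPM per kb in the group means. PDGFC made up 87.9% ± 4.58 of this sum in pMSCV, 84.0% ± 5.53 in SRF and 73.3% ± 11.2 in the libraries labelled SRF-FOXO1 (SD, n = 3). The last had values from 60.4% to 80.7%, each below the lowest pMSCV library, at 82.6%. Its share was 80.6% ± 6.86 in SRF-RELA, 82.6% ± 5.63 in SRF-ICA1L and 83.3% ± 4.61 in SRF-PDGFRB. These groups and SRF also had libraries below the lowest of pMSCV. Library 2 stood at 73.1% in SRF-RELA, 76.1% in SRF-ICA1L, 77.6% in SRF and 78.3% in SRF-PDGFRB. PDGFB made up 0.00861% in pMSCV, 8.85% ± 5.70 in the libraries labelled SRF-FOXO1 and 2.65% ± 1.34 in SRF-RELA. In SRF-ICA1L it made up 0.586% ± 0.215 and in SRF-PDGFRB 0.322% ± 0.39. PDGFA made up 7.0% ± 2.96 of the sum in pMSCV and 13.5% ± 3.46 in the libraries labelled SRF-FOXO1. These shares are descriptions without a test.

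**Figure D5:**
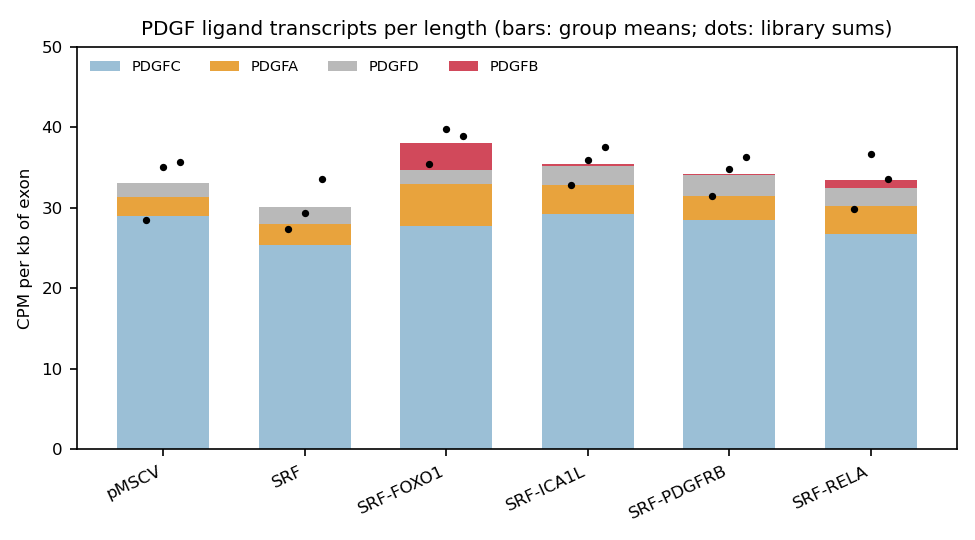
Ligand transcripts per length (vertical axis, CPM per kb of exon, from 0) in the 6 groups. Stacked bars are group means of PDGFC, PDGFA, PDGFD and PDGFB, and dots are the sums in single libraries. PDGFC fills most of each bar, and the PDGFB part is largest in the group labelled SRF-FOXO1, at 3.44 CPM per kb.

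The ligands also moved with the replicate number, which the labels do not explain. PDGFD was highest in library 2 in 6 of 6 groups, at 10.7 to 17.7 CPM there, against 3.49 to 6.77 CPM in the libraries numbered 1 and 6.01 to 11.6 CPM in those numbered 3. PDGFA was likewise highest in library 2 in 6 of 6 groups, at 12.97 to 28.5 CPM. PDGFC was highest in library 3 in 6 of 6 groups, at 154 to 181 CPM. In the fit with the block, the number was called for PDGFD, PDGFA and PDGFB (edgeR adjusted p = 1.98e-05, 0.00097 and 0.0129), where 24.6% of all tested genes were called. PDGFC (edgeR adjusted p = 0.0749) and both receptors (PDGFRB 0.101, PDGFRA 0.0913) were not.

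Genes around the family were followed in 5 lists. In the list of ligand processing, all 9 genes were tested, and 1, PLAU, rose in the libraries labelled SRF-FOXO1. PLAU encodes urokinase, a protease that can cut PDGF-D. Its level was 853, 2574 and 1089 CPM there against 270, 434 and 277 CPM in pMSCV. The log2 difference was 2.32 (SE 0.43, edgeR adjusted p = 0.0214) against pMSCV and 2.04 (SE 0.43, edgeR adjusted p = 0.0289) against SRF. The first call was lost without any 1 pMSCV library or SRF-FOXO1 2 (edgeR adjusted p up to 0.16), and the second without SRF 1, SRF 2 or SRF-FOXO1 2 (up to 0.156). Without SRF-FOXO1 2 the differences were 1.61 and 1.33. Without the block, no other gene of this list was called in any comparison. With it, SPARC, a matrix protein that binds PDGF-B and was singled out after its values were seen, was called in SRF-ICA1L against pMSCV (1.60, SE 0.29, edgeR adjusted p = 0.00558) and against SRF (1.28, SE 0.29, edgeR adjusted p = 0.0187), and lower in SRF-PDGFRB than in SRF-ICA1L (-1.40, SE 0.29, edgeR adjusted p = 0.0115). Without the block, the median log2 difference of the list against pMSCV was 0.23 in the libraries labelled SRF-FOXO1, beside 0.01 over all tested genes. It was 0.23 in SRF-RELA and 0.18 in SRF-ICA1L, beside -0.01 over all tested genes in each.

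In the list of VEGF relatives and related receptors, 9 of 13 genes were tested. VEGFA, a ligand of the same superfamily that acts on endothelial cells, was lower than in SRF (279 CPM) in 3 fusion groups. SRF had the highest mean, and pMSCV averaged 198 CPM. Without the block, no gene of this list was called against pMSCV. With it, VEGFA was not called against pMSCV in SRF-RELA or the libraries labelled SRF-FOXO1. Against SRF its log2 difference was -1.30 (SE 0.21, edgeR adjusted p = 0.00807) in SRF-ICA1L. In the SRF-RELA group the difference was -1.09 (SE 0.21, edgeR adjusted p = 0.0375) and in the libraries labelled SRF-FOXO1 -0.94 (SE 0.21, edgeR adjusted p = 0.0400). Left-out libraries of any group ended the last 2 calls in 12 and 11 of 18 fits, with edgeR adjusted p up to 0.227 without SRF-RELA 2 and 0.194 without SRF 2, and the first in the fit without SRF-ICA1L 2 (0.0525). NRP2, a co-receptor, was higher in the libraries labelled SRF-FOXO1 than in SRF, by 0.98 (SE 0.21, edgeR adjusted p = 0.0327), a call lost without SRF 1, SRF 2, SRF-FOXO1 2 or SRF-FOXO1 3 (edgeR adjusted p up to 0.153). With the block, VEGFA was lower (-0.76, SE 0.19, edgeR adjusted p = 0.0352) and the VEGF receptor gene FLT1 higher (3.10, SE 0.78, edgeR adjusted p = 0.0328, at means of 0.687 against 0.0728 CPM) in SRF-ICA1L against pMSCV, and VEGFB was lower in SRF-PDGFRB against SRF (-0.39, SE 0.08, edgeR adjusted p = 0.0202). FLT1 and VEGFB were singled out after their values were seen.

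Among the 23 receptor adaptors and effectors and the 12 negative regulators, all tested, edgeR called 0 in each of the 12 comparisons without the block. At an unadjusted p under 0.05 there were 0 to 5 adaptors and 0 to 2 negative regulators in a comparison, and other tools were not run on these lists. With the block, calls appeared in 3 of the 12 comparisons for each list. Against pMSCV there was 1 call of 23 and 1 of 12, where 7.03% of all tested genes were called. These were PIK3R1, a regulatory subunit of PI3 kinase, lower, and NHERF1, a scaffold protein that binds the PDGF receptor, higher, both in the libraries labelled SRF-FOXO1, and both were singled out after their values were seen.

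In the list of 16 ERK and STAT feedback genes, CISH rose in SRF-PDGFRB. CISH belongs to the family of suppressors of cytokine signalling, whose genes are induced by STAT5. Its level was 7.97, 11.2 and 10.1 CPM there, 3.04, 3.83 and 3.39 CPM in pMSCV and 3.04, 5.16 and 2.85 CPM in SRF. SRF-PDGFRB overlapped neither of the other groups. The log2 difference was 1.51 (SE 0.23, edgeR adjusted p = 0.0379) against pMSCV and 1.37 (SE 0.23, edgeR adjusted p = 0.0268) against SRF. CISH was called against each of the 3 other fusion groups as well, with log2 differences of 1.1 to 1.5. The call against pMSCV was lost in 11 of 18 fits without 1 library (edgeR adjusted p up to 0.335), among them those without any 1 pMSCV library, SRF-PDGFRB 2 or SRF-PDGFRB 3. The call against SRF was lost without SRF 1, SRF 3 or any 1 SRF-PDGFRB library (up to 0.120). Fitted on the compared groups alone, PLAU, NRP2, VEGFA and CISH did not pass in any of the comparisons against pMSCV or SRF that called them above (edgeR adjusted p = 0.0779 to 0.454). The other 15 genes of the list were not called in SRF-PDGFRB against pMSCV without the block.

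With the block, 2 relatives of CISH were called too in SRF-PDGFRB, and they are named after their values were seen. SOCS2 stood at 17.7, 36.5 and 63.3 CPM against 3.82, 10.9 and 11.4 CPM in pMSCV (log2 difference 2.11, SE 0.25, edgeR adjusted p = 0.00176, against 1 without the block). SOCS1 stood at 9.12, 13.9 and 21.0 CPM against 2.94, 3.40 and 7.45 CPM (log2 difference 1.70, SE 0.22, edgeR adjusted p = 0.00280, against 0.388 without it). All 3 SRF-PDGFRB libraries were above all pMSCV libraries for both genes, and SOCS2 and SOCS1 were lowest in library 1 of both groups.

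Feedback genes were called with the block in the other fusion groups too, and these were likewise named after their values were seen. In the libraries labelled SRF-FOXO1 against pMSCV 4 of the 16 were called, where 7.03% of all tested genes were. DUSP5, an ERK phosphatase, was higher (1.05, SE 0.16, edgeR adjusted p = 0.00144), and ETV1, PHLDA1 and SPRED1 were lower. In SRF-ICA1L 5 of 16 were called (4.66% of all genes), with DUSP5 higher (0.76, SE 0.16, edgeR adjusted p = 0.0132) and ETV1, PHLDA1, SPRED1 and SPRY4 lower. SRF-RELA had 1 call, DUSP5, which was higher (0.73, SE 0.16, edgeR adjusted p = 0.0419), beside 0.971% of all genes. SRF-PDGFRB had 3 (CISH, SOCS2 and SOCS1), beside 0.178% of all genes.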

How the data were processed

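RNA of 18 MSC-hTERT libraries was prepared with a stranded mRNA kit and sequenced on an Illumina NovaSeq instrument, per the labels' protocols. The authors deposited raw counts per Ensembl gene. FastQC 0.11.8, Trimmomatic 0.39, HISAT2, featureCounts of Subread 2.0.3 and GRCh38 are named in the submitters' processing notes. The annotation release and the strand setting are not given in the sources used here, so reads shared by overlapping genes could be lost or misassigned. Symbols came from a table of gene names, which matched 61369 of 61487 identifiers. Coordinates and exon lengths are from GENCODE 29 on GRCh38.

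CPM is the count divided by the library's total. Tests used edgeR 4.0.16 (limma 3.58.1, R 4.3.3). Genes passed filterByExpr with a minimum count of 10, libraries were scaled by TMM, and 1 quasi-likelihood model with robust estimation was fitted to 6 groups (12 residual degrees of freedom, common biological coefficient of variation 0.225). Two-sided F tests were adjusted by Benjamini-Hochberg over 18544 genes, with a call at 0.05. The script was tested on simulated counts. DESeq2 1.42.0, other scalings, filters and sample sets were alternatives.

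Replicate numbers were checked from the values: deviations from the group means correlated above 0.1 in 44 of 45 pairs of libraries of equal number (median 0.375, lowest 0.087, SRF 1 with SRF-FOXO1 1). The numbers were taken to pair libraries from these values, not from the labels, except between SRF and the libraries labelled SRF-FOXO1, and the block fit (10 residual degrees of freedom, coefficient 0.150) is given where it changes a member's call, and for the lists as counts with examples. Genes named are the members, SRF, list genes called without the block against pMSCV or SRF, and for each tested member the 3 genes most like it, of which 1 is not reported here. The members and lists were chosen with earlier results of these data known.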

Additional observations from a re-analysis of the deposited data

How the results depend on the processing

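Signs were followed for members at an unadjusted p under 0.05 without the block or called with it. They were also followed for list genes called without the block against pMSCV or SRF. None of these log2 differences changed sign in the settings run. Smaller ones of members did. PDGFRA in SRF against pMSCV was 0.05 without the block and below 0 with it. PDGFD in the libraries labelled SRF-FOXO1 against pMSCV was 0.08 and -0.03. List genes called only with the block were not followed. Counts are of members called. With the replicate block the count was 3 in the libraries labelled SRF-FOXO1 against pMSCV. Against SRF it was 3, where the numbers were not taken to pair the libraries. It was 3 for SRF-PDGFRB against the libraries labelled SRF-FOXO1, 2 in SRF-ICA1L against pMSCV and 1 against SRF. In SRF-PDGFRB it was 1 against SRF and 1 against SRF-RELA, and in the test of the 6 groups it was 3. The block changed no other count. With DESeq2 the count was 3 in the libraries labelled SRF-FOXO1 against pMSCV, 2 against SRF and 2 for SRF-PDGFRB against them, 1 in SRF-ICA1L against pMSCV and 2 in the test of the 6 groups. The share of all genes that DESeq2 called was not counted, so its counts here and above have no background beside them. Without a count filter it was 0 in SRF-RELA against pMSCV and 0 against SRF (PDGFB edgeR adjusted p = 0.121 and 0.122), and PLAU in the libraries labelled SRF-FOXO1 was no longer called against pMSCV (0.0774) or SRF (0.112). With at least 10 counts in every library, a filter that removes PDGFB, it was 0 in each of the 5 comparisons that called PDGFB and 0 in the test of the 6 groups. That filter also ended the calls of CISH in SRF-PDGFRB against pMSCV (edgeR adjusted p = 0.0587) and VEGFA in SRF-RELA against SRF (0.062). Fitted on the compared groups alone it was 0 in those 5 comparisons and 1 in SRF-ICA1L against pMSCV. Scaling by DESeq2 size factors or by totals changed no count. Leaving out 1 library gave 0 to 2 in the libraries labelled SRF-FOXO1 against pMSCV, 1 to 2 against SRF, 0 to 2 for SRF-PDGFRB against them, 0 to 1 in SRF-RELA against pMSCV, 0 to 1 against SRF, 1 to 2 in the test of the 6 groups and 3 to 4 for the replicate number, and 0 throughout elsewhere. Leaving out all libraries labelled SRF-FOXO1, a choice made after seeing the data, left PDGFB called in SRF-RELA against pMSCV (edgeR adjusted p = 0.0206) and against SRF (0.0232) and in the test of the groups, called 4 members for the replicate number, and left VEGFA in SRF-RELA against SRF above the threshold (edgeR adjusted p = 0.0598). The cause was not tested for the other changes. TMM scaling moved none of the 42 group levels by more than 1 SD. A PDGFB count of 0 allows up to 3 reads of a library's total.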

Other observations

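Levels of the members were compared over the 18 libraries as a description. The libraries share groups, replicate numbers and depth, so no p-value is given. PDGFA and PDGFB had the highest Pearson correlation of TMM log2 CPM among pairs of members (r = 0.70). PDGFRA ran opposite to both ligands, with r = -0.63 to PDGFB and -0.54 to PDGFA. PDGFRB and PDGFRA had r = 0.07.

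Among the genes most like PDGFB were F3, which encodes tissue factor (r = 0.94), and ACTC1, the cardiac alpha actin (0.93). PDGFA was most like IMPDH1 (0.93), TBL2 (0.92) and SIAH2 (0.92). PDGFRA was most like PTGIS, the prostacyclin synthase gene (0.89), PLXDC2 (0.88) and SALL2 (0.85). PDGFD was most like MGAT1 (0.92), ARSB (0.91) and COL4A2, a collagen IV chain (0.91), and PDGFC like SHLD2 (0.86), MT1A (0.83) and CKAP2 (0.82). For PDGFRB, whose counts include construct reads in 1 group, the likest were FAM217A (0.81), RN7SKP16 (0.80) and a gene without a symbol (0.79).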
